A study of Mus musculus with 12 samples.

Results

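The retinoic acid receptors and retinoid X receptors, with genes for corepressors and coactivators that work with them, were followed in cultured mouse lung epithelial cells after knockdown of either of 2 long noncoding RNAs. The set was chosen by gene symbol and held 9 genes: Rara, Rarb, Rarg, Rxra, Rxrb, Rxrg, Nrip1, Ncor1 and Ncoa7. A probe set carrying exactly 1 of these symbols was found for 8 of them, 1 probe set each, among 41345 probe sets and 22180 named genes on the array. The annotation used here listed no probe set for Ncor1, so the RNA of this corepressor gene was not analysed here. The cells were MLE12, a mouse distal lung epithelial line immortalised with a viral large T antigen. All groups were the same line in the same medium, with 2% serum, hydrocortisone and beta-estradiol at 10 nM each, and all were infected with a lentivirus. The vector was pLKO.1 and carried an shRNA against the RNA named NANCI, an shRNA against the RNA named LL34, or a scrambled shRNA. Cells were exposed to virus for 12 hours from 60% confluency and harvested after a further 65 hours. Each shRNA had its own scrambled group, which made 4 groups of 3 arrays in 2 sets of 6. The labels call the replicates biological without saying whether each was infected separately. The p-values therefore measure spread among these arrays, which may be technical.

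Retinoic acid receptors are transcription factors of the nuclear receptor family that bind DNA as pairs with a retinoid X receptor. Without ligand the pair holds corepressors and histone deacetylases at its target genes, and binding of retinoic acid exchanges them for coactivators that acetylate histones. In the lung the pathway is needed for the primary lung bud to form and is known for its part in alveolar development. Rarb is both a receptor and a classical target, since retinoic acid induces it through a response element in its own promoter.

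The NANCI shRNA lowered its target. Sfta3-ps, the noncoding RNA gene listed with the synonym Nanci, read 8.75 to 9.19 on the NANCI shRNA arrays and 11.81 to 12.05 on their scrambled arrays (log2 signal, where 1 unit is a doubling; change −2.91, limma adjusted p = 1.72e-07). Nkx2-1, the lung homeodomain factor gene beside it, read 10.04 to 10.18 against 11.10 to 11.18. After LL34 shRNA Sfta3-ps also fell, by 0.67 (limma adjusted p = 0.00284), and Nkx2-1 by 0.27 (0.0327). That Nkx2-1 call was lost without any array but LL34_control replicate 3 (0.0862 to 0.119). No probe set here carries the name LL34, so the depletion of that RNA was not checked. Array medians lay between 6.84 and 6.88 in the NANCI set and between 6.54 and 6.61 in the LL34 set, so shRNA effects are given within a set. Replicates correlated at 0.986 or above, and LL34_control replicate 3 correlated least with its group (0.988 on average). The surfactant genes Sftpc, Sftpb and Abca3 exceeded the array median on all 12 arrays, while the other 5 of 8 type 2 cell markers lay below it on all 12. Abca3 fell by 1.24 and the epithelial genes Cdh1 and Krt8 by 1.56 and 0.43 after NANCI shRNA. After LL34 shRNA Sftpc fell by 0.62, Krt8 by 0.67, and Sftpb and Epcam rose by 0.62 and 0.33. The leukocyte genes Ptprc and Itgam and the endothelial genes Pecam1 and Kdr lay below the median on all 12 arrays, while Cd68 of the leukocyte list lay above it on 12, and Tek and Vwf of the endothelial list on 11 and 7. The mean of the 5 epithelial markers, relative to the array median, was 1.79 to 1.89 on NANCI shRNA arrays against 2.36 to 2.40 on their scrambled arrays, and 2.26 to 2.35 against 2.43 to 2.66 in the LL34 set. Of 4 measured leukocyte markers Cd68 alone was called, higher after NANCI shRNA (0.88). The leukocyte mean was −0.048 to 0.066 against −0.24 to −0.19 in the NANCI set and −0.29 to −0.27 against −0.18 to −0.11 in the LL34 set. Of 5 endothelial markers Tek alone was called, lower after both shRNAs (−1.05 and −1.26), with a mean of −0.19 to −0.097 against 0.060 to 0.087 and of −0.45 to −0.39 against −0.14 to −0.076. Of 5 fibroblast markers Dcn alone was called, lower after NANCI shRNA (−0.91), with a mean of 1.19 to 1.27 against 1.37 to 1.53 and of 1.37 to 1.39 against 1.36 to 1.58. The part of other cell types in the results was not tested. In bulk RNA, fewer cells of a type and less RNA per cell cannot be told apart.

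The sequence by which Rarb answers retinoic acid is shown here because Rarb is a receptor in the set and also a classical target. Promoter windows of 300 bases, from 250 before to 50 after each annotated start, came from RefSeq on GRCm38.p6, and all 9 genes had at least 1, with 19 windows in all. Both strands were searched for 2 copies of the core motif AGGTCA, or of its variants AGTTCA with a changed middle base, GGGTCA with a changed first base and GGTTCA with both, in the same direction, with 1, 2 or 5 bases between them (called DR1, DR2 and DR5). Retinoid receptor pairs are known to bind such repeats. Rarb held a DR5 at positions −53 to −37 from a start inside the gene, and the other 18 windows held none of the 3 repeats. Of 60 genes of the pathway lists described further on that had a window, Cyp26a1, a retinoic acid hydroxylase gene and another classical target, also held a DR5, on the opposite strand, and Bco1, a carotene oxygenase gene, held a DR1. The Rarb stretch is chr14:16575477-16575589, minus strand, and the Cyp26a1 stretch is chr19:37697716-37697807, plus strand. Both are written 5′ to 3′ along the gene and end at the base before the start, with the repeat in capitals.
Rarb: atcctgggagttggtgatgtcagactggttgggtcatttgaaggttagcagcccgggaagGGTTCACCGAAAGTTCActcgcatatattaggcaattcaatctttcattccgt
Cyp26a1: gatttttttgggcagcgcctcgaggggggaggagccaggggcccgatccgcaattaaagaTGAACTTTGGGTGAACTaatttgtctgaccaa
Of 32851 promoter windows of the same length, 0.0974% held a DR5, 0.268% a DR2 and 0.222% a DR1. A match describes the letters only, and no match says nothing of receptor binding elsewhere.

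After NANCI shRNA, Rara and Rarg rose while Rarb and Nrip1 fell. After LL34 shRNA, Rarg and Rara fell. The 3 retinoid X receptors and Ncoa7 passed the threshold in neither comparison; at an unadjusted p under 0.05, 2 of the 3 receptors passed after NANCI shRNA and 0 after LL34 shRNA. The test was limma across all 12 arrays with Benjamini-Hochberg adjustment over all 41345 probe sets and a threshold of 0.05. In the NANCI comparison 4 of 8 measured genes were called (50%), beside 19.9% of all probe sets (10.3% higher, 9.6% lower), and in 6 of 8 (75%) the shRNA and scrambled arrays did not overlap, beside 33% of all probe sets. In the LL34 comparison 2 of 8 were called (25%), beside 16.4% (9.7% higher, 6.66% lower), and 5 of 8 (62.5%) did not overlap, beside 31%. Most of the 8 genes were bright, and a larger share was called in a separate fit of the brighter probe sets alone. That fit held the 20673 probe sets whose mean level reached the median of all, with adjustment over these only. In it 5 of 7 genes (71.4%) were called after NANCI shRNA, beside 40.7% of those probe sets. After LL34 shRNA 3 of 7 (42.9%) were called, beside 34.9%. The calls it added were Rxrb after NANCI shRNA and Ncoa7 after LL34 shRNA. For the difference between the knockdowns described further on, the shares in that fit were 42.9% and 39.4%. The genes were chosen with earlier results of these arrays known, so these shares are descriptive. Over all probe sets LL34 calls split into 4011 higher and 2755 lower, or 3307 and 3463 after quantile normalization over all arrays.

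**Figure D1:**
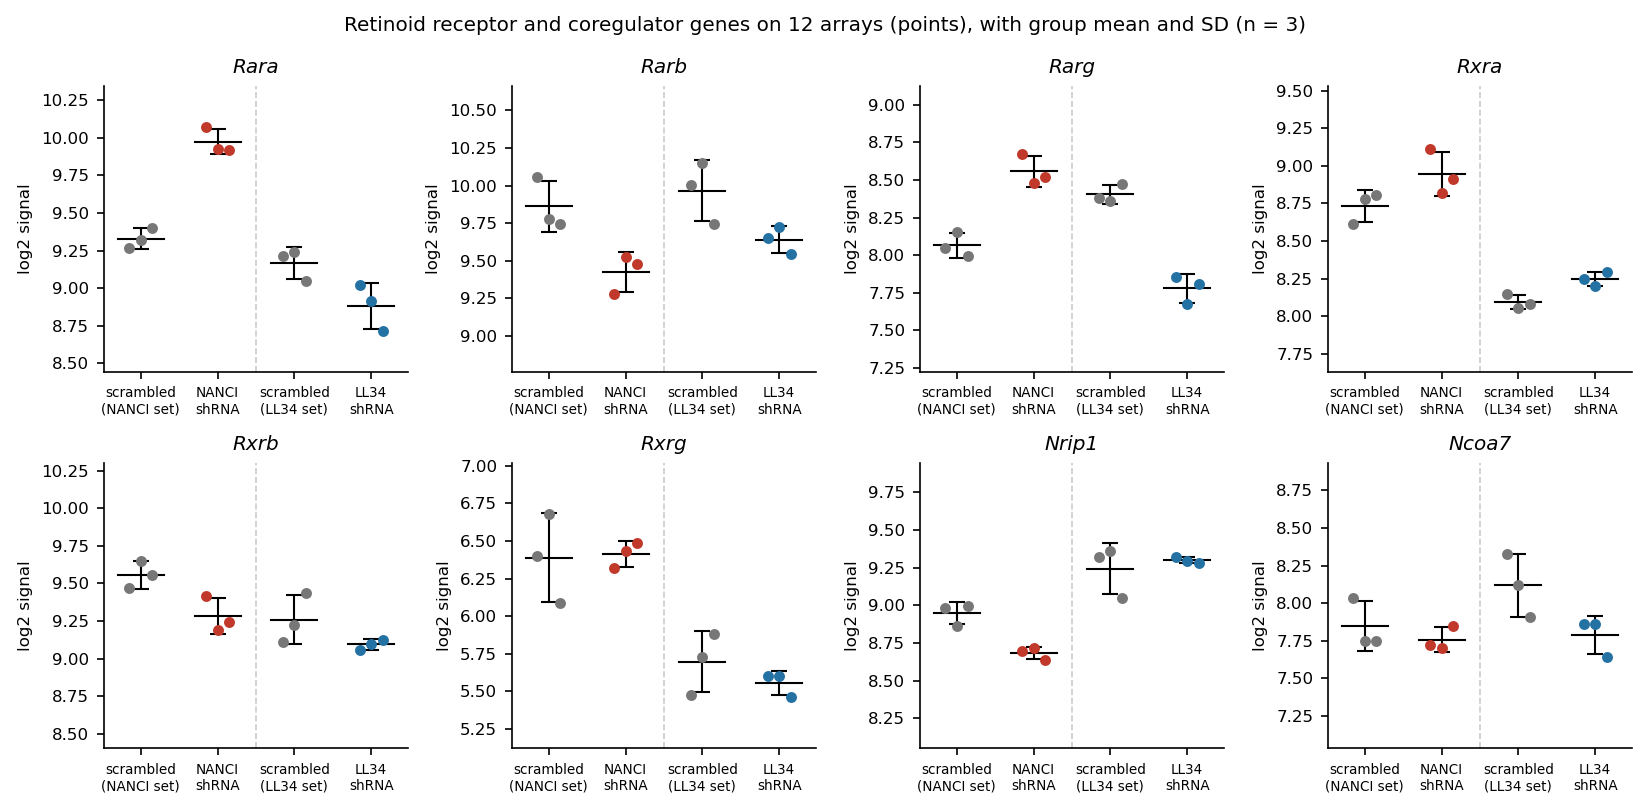
Log2 signal of the 8 measured genes on each of the 12 arrays (points), with the mean (long bar) and SD (whiskers) of each group of 3; each panel spans the same range of log2 units and the dashed line separates the NANCI set from the LL34 set. The red NANCI shRNA points lie above their grey scrambled points for Rara and Rarg and below them for Rarb and Nrip1, and the blue LL34 shRNA points lie below theirs for Rara, Rarb and Rarg.

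Rara (probe set 17256242, gene at chr11:98927800-98974942 on GRCm38.p6, the build of all gene spans given here) encodes the broadly expressed receptor RAR alpha, and it showed opposite changes in the 2 sets. On the NANCI shRNA arrays it read 10.07, 9.93 and 9.92, and on their scrambled arrays 9.27, 9.32 and 9.40. The lowest shRNA array stood well above the highest scrambled array. Rara thus rose from 9.33 ± 0.0675 to 9.97 ± 0.0839 (SD, 3 arrays each), a change of 0.64 (SE 0.0867, limma adjusted p = 0.00027) or 1.56-fold. In the LL34 set it read 9.02, 8.91 and 8.72 with the shRNA and 9.21, 9.24 and 9.05 without. The groups did not overlap, but the highest shRNA array and the lowest scrambled array, LL34_control replicate 3, lay close together. Rara fell by 0.28 (limma adjusted p = 0.0475, SE 0.0867), so that 82.2% of the scrambled signal remained. That LL34 call was lost without LL34_shRNA replicate 2 (adjusted p = 0.0925) or 3 (0.183) or LL34_control replicate 1 (0.114) or 2 (0.148), and when the LL34 set was fitted by itself (0.132).

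Rarg (probe set 17322181, chr15:102234938-102257522) encodes RAR gamma, the third retinoic acid receptor, known for its role in skin and other epithelia. It read 8.68, 8.48 and 8.52 on the NANCI shRNA arrays and 8.05, 8.16 and 7.99 on their scrambled arrays. All 3 shRNA arrays were higher than all 3 scrambled arrays, and Rarg rose by 0.49 (SE 0.075, limma adjusted p = 0.000627), or 1.41-fold. In the LL34 set it read 7.86, 7.67 and 7.81 with the shRNA against 8.38, 8.36 and 8.48 with the scrambled construct. Here all shRNA arrays were lower, and Rarg fell by 0.62 (limma adjusted p = 0.000234, SE 0.075), leaving 64.9% of the scrambled signal. The scrambled groups themselves stood at different levels, 8.07 ± 0.0835 in the NANCI set and 8.41 ± 0.0615 in the LL34 set. With all 6 scrambled arrays as 1 control group the NANCI change was 0.32 (adjusted p = 0.0796), and the LL34 change was −0.45 (adjusted p = 0.0248).

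Rarb (probe set 17303609, chr14:16430839-17082331), the receptor gene with the DR5 printed above, fell after NANCI shRNA and did not pass the threshold after LL34 shRNA. It read 9.28, 9.53 and 9.48 on the NANCI shRNA arrays and 10.06, 9.78 and 9.75 on their scrambled arrays. The groups did not overlap, and NANCI_shRNA replicate 1 and NANCI_control replicate 1 were the extremes. Rarb fell by 0.43 (limma adjusted p = 0.0224, SE 0.117), leaving 74.1% of the scrambled signal. Without NANCI_shRNA replicate 1 the change was −0.36 (adjusted p = 0.0944) and without NANCI_control replicate 1 it was −0.33 (0.0921), so the call needed both arrays. In the LL34 set Rarb read 9.65, 9.72 and 9.55 with the shRNA and 10.00, 10.15 and 9.74 without. The highest shRNA array lay just under LL34_control replicate 3, and the change of −0.32 (95% interval −0.58 to −0.065) missed the threshold at an adjusted p of 0.0919. It passed without LL34_control replicate 3 (−0.43, adjusted p = 0.0242), with quantile normalization over all arrays (0.045) and with array weights (0.0105).

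The retinoid X receptors are the partners without which retinoic acid receptors bind DNA poorly. Rxra (probe set 17368550, chr2:27676445-27763319), the main form in many epithelia, read 9.11, 8.82 and 8.91 on NANCI shRNA arrays and 8.61, 8.78 and 8.81 on scrambled arrays. The groups were separated by a narrow margin, and the change of 0.21 (95% interval 0.037 to 0.39) had an adjusted p of 0.0939. In the LL34 set Rxra read 8.25, 8.20 and 8.29 against 8.15, 8.05 and 8.08, a change of 0.15 (−0.024 to 0.33, adjusted p = 0.263). Rxrb (probe set 17336322, chr17:34031812-34038403), a broadly expressed form, read 9.42, 9.19 and 9.24 on NANCI shRNA arrays and 9.47, 9.65 and 9.55 on scrambled arrays, a change of −0.28 (−0.48 to −0.075) with an adjusted p of 0.0562. Its LL34 change was −0.16 (−0.36 to 0.035, adjusted p = 0.293), with overlapping groups. Rxra was called in the NANCI comparison without NANCI_shRNA replicate 2 (0.28, adjusted p = 0.0456), and measured 0.53, not called, against all 6 scrambled arrays. Rxrb was called without NANCI_shRNA replicate 1 (−0.34, adjusted p = 0.0325), with array weights (0.0219) and among the brighter probe sets (0.0306).

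Rxrg (probe set 17219110, chr1:167598362-167639623), the gene of the retinoid X receptor of muscle and parts of the brain, gave a dim signal. It read 6.09 to 6.68 over the NANCI set and 5.46 to 5.88 over the LL34 set, below the median of all probe sets on each of the 12 arrays. Its changes of 0.024 (95% interval −0.28 to 0.33) after NANCI shRNA and −0.14 (−0.45 to 0.17) after LL34 shRNA had adjusted p-values of 0.949 and 0.598. Its standard error (0.14) was the largest among the 8 genes.

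Nrip1 (probe set 17331564, chr16:76287403-76373827) encodes RIP140, a corepressor that binds nuclear receptors in the presence of their ligand. It read 8.69, 8.72 and 8.64 on the NANCI shRNA arrays and 8.98, 8.86 and 9.0 on the scrambled arrays. All shRNA arrays were lower, and Nrip1 fell by 0.26 (limma adjusted p = 0.0383, SE 0.0798), leaving 83.3%. The call was lost without any 1 of NANCI_shRNA replicates 1, 2 and 3 or NANCI_control replicates 1 and 3 (adjusted p from 0.07 to 0.121) and with arrays centred on their medians (0.0551). In the LL34 set it read 9.32, 9.29 and 9.28 against 9.32, 9.36 and 9.05, a change of 0.056 (95% interval −0.12 to 0.23, adjusted p = 0.736). The LL34 scrambled group of Nrip1 was spread by replicate 3 (SD 0.171), while the shRNA group was tight (SD 0.0202).

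Ncoa7 (probe set 17240053, chr10:30645582-30807700) encodes a nuclear receptor coactivator first known for binding the estrogen receptor. It read 7.72, 7.70 and 7.85 on NANCI shRNA arrays and 8.04, 7.75 and 7.75 on scrambled arrays, with overlap and a change of −0.087 (95% interval −0.34 to 0.17, adjusted p = 0.73). In the LL34 set it read 7.86, 7.86 and 7.64 with the shRNA and 8.33, 8.12 and 7.91 without. Those groups did not overlap, and the change of −0.33 (−0.59 to −0.076) had an adjusted p of 0.0814. It passed without LL34_control replicate 3 (−0.44, adjusted p = 0.0234), with quantile normalization (0.0142), with array weights (0.0187) and among the brighter probe sets (0.0464).

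**Figure D2:**
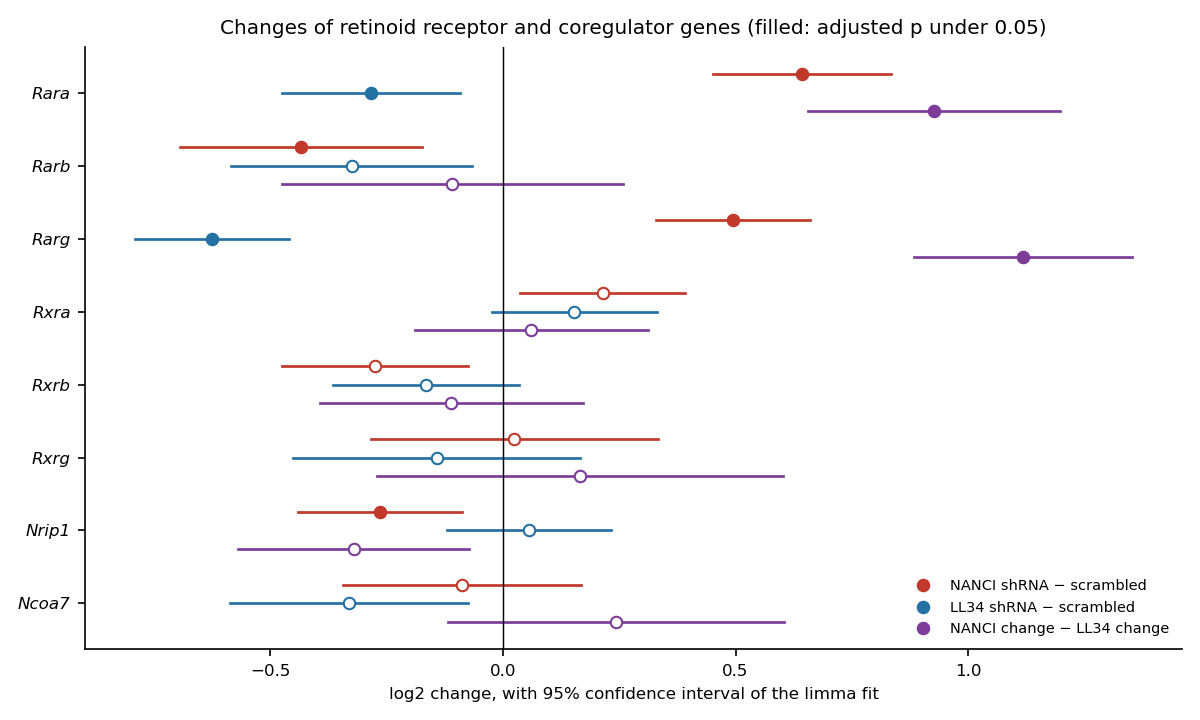
Log2 change of each gene in the NANCI comparison (red), the LL34 comparison (blue) and the NANCI change minus the LL34 change (purple), with the 95% interval of the limma fit; filled points passed an adjusted p of 0.05. Red and blue lie on opposite sides of 0 for Rara, Rarg, Rxrg and Nrip1 and on the same side for Rarb, Rxra, Rxrb and Ncoa7. The intervals of both Rxrg changes and of the LL34 change of Nrip1 hold 0.

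The change of Rara and of Rarg differed between the knockdowns. The NANCI change minus the LL34 change was 0.93 for Rara (SE 0.123, limma adjusted p = 0.000305) and 1.12 for Rarg (SE 0.106, limma adjusted p = 3.24e-05). These 2 of 8 genes (beside 18.8% of all probe sets, 8.63% higher and 10.2% lower) kept the call under each of 18 alternatives, with differences from 0.84 to 1.00 for Rara and from 1.06 to 1.22 for Rarg. For Rarb the difference was −0.11 with a 95% interval of −0.48 to 0.26, and for Rxra 0.061 with −0.19 to 0.31. The intervals for Rxrb (−0.39 to 0.17), Rxrg (−0.27 to 0.60) and Ncoa7 (−0.12 to 0.60) also held 0. Nrip1 measured −0.32 (−0.57 to −0.072, adjusted p = 0.076), and it passed with quantile normalization (0.0449), with array weights (0.0386), among the brighter probe sets (0.0415) and without LL34_control replicate 2 (−0.38, adjusted p = 0.0461).

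**Figure D3:**
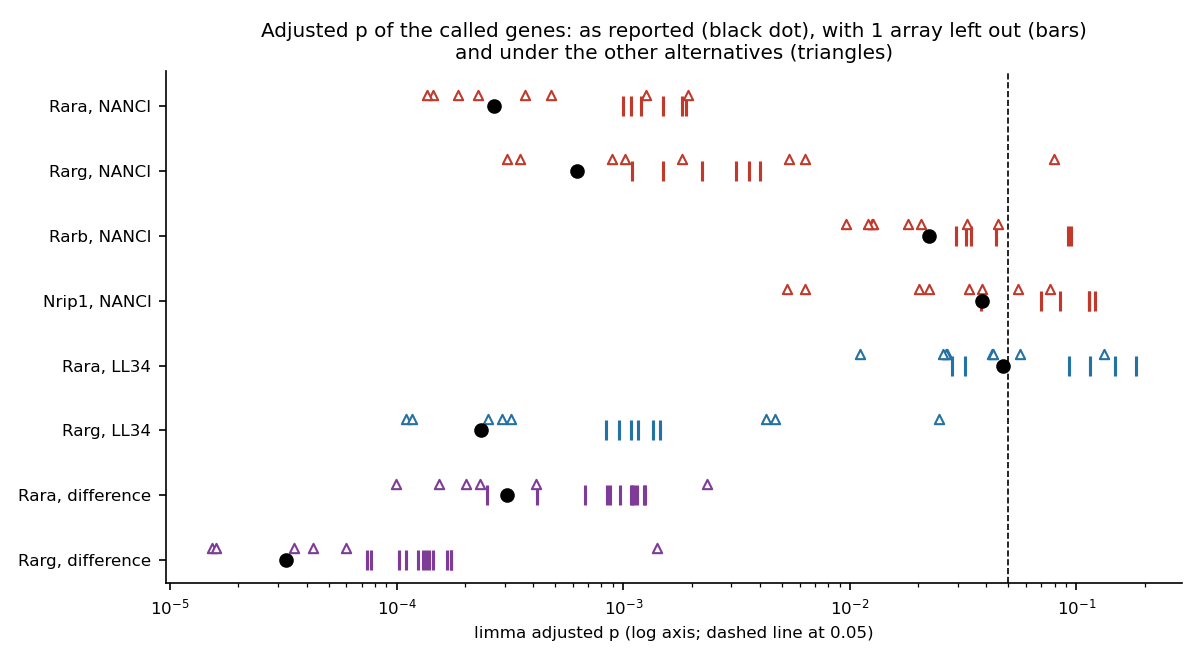
Limma adjusted p (log axis, dashed line at 0.05) of each called change as reported (black dots), with 1 array left out (vertical bars) and under the other alternatives (triangles). Values for Rara after NANCI shRNA, Rarg after LL34 shRNA and both differences lie left of the line throughout, while Rarb, Rarg and Nrip1 after NANCI shRNA and Rara after LL34 shRNA cross it.

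Levels in the 4 groups are set side by side without a test, because the sets looked separately normalized. Rara was highest after NANCI shRNA (9.97), followed by the NANCI scrambled (9.33), LL34 scrambled (9.17) and LL34 shRNA groups (8.88), with no overlap between neighbours. Rarg was highest after NANCI shRNA (8.56), then in LL34 scrambled (8.41), NANCI scrambled (8.07) and LL34 shRNA cells (7.78). Rarb ran from LL34 scrambled (9.96) over NANCI scrambled (9.86) and LL34 shRNA (9.64) to NANCI shRNA (9.43), and the 2 scrambled groups overlapped. Rxra stood higher in the NANCI set than in the LL34 set, at 8.95 and 8.73 in the NANCI set and 8.25 and 8.09 in the LL34 set. Nrip1 stood higher in the LL34 set, at 9.30 and 9.24, than in the NANCI set, at 8.68 and 8.95. Between scrambled groups, LL34 minus NANCI, Rxrg measured −0.69, Rxra −0.64, Rxrb −0.30, Rara −0.16, Rarb 0.10, Ncoa7 0.27, Nrip1 0.30 and Rarg 0.34, where the median of all probe sets was −0.22. After quantile normalization over all arrays these differences were, in the same order, −0.35, −0.49, −0.22, −0.067, 0.18, 0.44, 0.40 and 0.49, with a median of −0.0098. The order of the 4 groups was the same on both scales for 5 of the 8 genes and changed for Rxrb, Nrip1 and Ncoa7. In each of the 5 genes whose order stayed the same, a pair of neighbouring groups that had been separate overlapped after quantile normalization. The pair was the 2 scrambled groups for Rara and Rxrg, and NANCI shRNA and LL34 scrambled cells for Rarg. For Rarb it was NANCI scrambled and LL34 shRNA cells. For Rxra it was LL34 shRNA and LL34 scrambled cells, whose means were then 8.24 and 8.20.

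Genes with profiles like those of the 3 retinoic acid receptors, which changed most in size within the set, were sought over the 12 arrays after the mean of each set of 6 was subtracted. Among 19277 genes, Rarg was closest to Ttll12 (Pearson r = 0.991), Get1 (0.986) and Ptov1 (0.984). Ttll12 measured 0.54 after NANCI shRNA and −0.68 after LL34 shRNA, much as Rarg did. Rara was closest to Adamts7 (0.976), a metalloprotease gene, Nrn1 (0.972) and Maged1 (0.972). Nrn1 changed more in size than Rara, with 1.87 and −0.76. Rarb was closest to Spidr (0.956), Mpv17l (0.948) and Eif4g2 (0.947), a translation factor gene. Spidr measured −0.37 and −0.27. These are the highest of many correlations, and arrays of a group share their treatment.

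The rest of the pathway was read through 5 lists of 83 genes, of which 76 were measured, chosen for their role. Over all named genes 26.8% were called in the NANCI comparison with a median change of 0.0042, and 20% in the LL34 comparison with a median of −0.019. In the separate fit of the brighter probe sets alone the shares called were 40.7% and 34.9%. Of 16 enzymes that make or break down retinoic acid, 3 rose and 5 fell after NANCI shRNA (median −0.0010), and 0 rose (by limma, also at an unadjusted p under 0.05) and 6 fell after LL34 shRNA (median −0.14). Aldh1a1, a dehydrogenase that makes retinoic acid, rose by 0.65 (limma adjusted p = 0.00182) after NANCI shRNA and fell by 3.04 (3.32e-07) after LL34 shRNA. The scrambled mean of Aldh1a1 was 10.01 in the NANCI set and 11.31 in the LL34 set. Against all 6 scrambled arrays its NANCI change was −0.0036 (adjusted p = 0.994). Changes against all 6 also hold any difference between the sets. Aldh1a2, the dehydrogenase of the embryo, fell by 1.09 after LL34 shRNA, and Cyp26b1, which inactivates retinoic acid, fell by 0.96. Adh7, a retinol dehydrogenase, fell by 0.55 and 0.83, Dhrs3, which reduces retinal, fell by 0.87 after NANCI shRNA, and Adh5 rose by 0.96. Against all 6 scrambled arrays the NANCI call of Adh5 was lost (0.59, adjusted p = 0.0684), as was the LL34 call of Adh7 (−0.47, adjusted p = 0.153).

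Of 19 measured genes of retinoid binding, uptake and response, 1 rose and 6 fell after NANCI shRNA (median −0.075), and 3 rose and 1 fell after LL34 shRNA (median −0.017). Tgm2, a transglutaminase gene that retinoic acid induces, fell by 0.47 (limma adjusted p = 0.00934) and by 0.46 (0.0138). Its LL34 call was lost without LL34_shRNA replicate 1 (0.063) or LL34_control replicate 2 (0.054) and with the 6 arrays alone (0.0525). Rai14 fell by 1.28 after NANCI shRNA and the homeobox gene Meis2 by 0.68, and Hoxa4 rose by 0.40. After LL34 shRNA Hoxa5, a homeobox gene of lung development, rose by 0.75 (adjusted p = 0.00164), or 0.40 (adjusted p = 0.212) against all 6 scrambled arrays. Hoxb4 rose by 0.31 and Rai14 by 0.29 after LL34 shRNA. The Hoxb4 call was lost with quantile normalization (0.0704) and without LL34_shRNA replicate 1 (adjusted p = 0.0524) or 2 (0.0664), and that of Rai14 against all 6 scrambled arrays (0.15, adjusted p = 0.326), with arrays centred on their medians (0.0503) and without LL34_shRNA replicate 1 (0.0745) or 2 (0.0717) or LL34_control replicate 3 (0.0626). Cyp26a1, named for its DR5, was dim: it read 6.24 to 6.44 in the NANCI set and 5.59 to 5.85 in the LL34 set, below the array median on all arrays, with changes of 0.0049 (adjusted p = 0.983) and −0.050 (0.772). With 1 array left out the list had from 4 to 6 called genes in the NANCI comparison, 4 without NANCI_shRNA replicate 1 or NANCI_control replicate 3. In the LL34 comparison it had from 1 to 5, with 1 without LL34_shRNA replicate 1 and 2 without LL34_shRNA replicate 2.

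**Figure D4:**
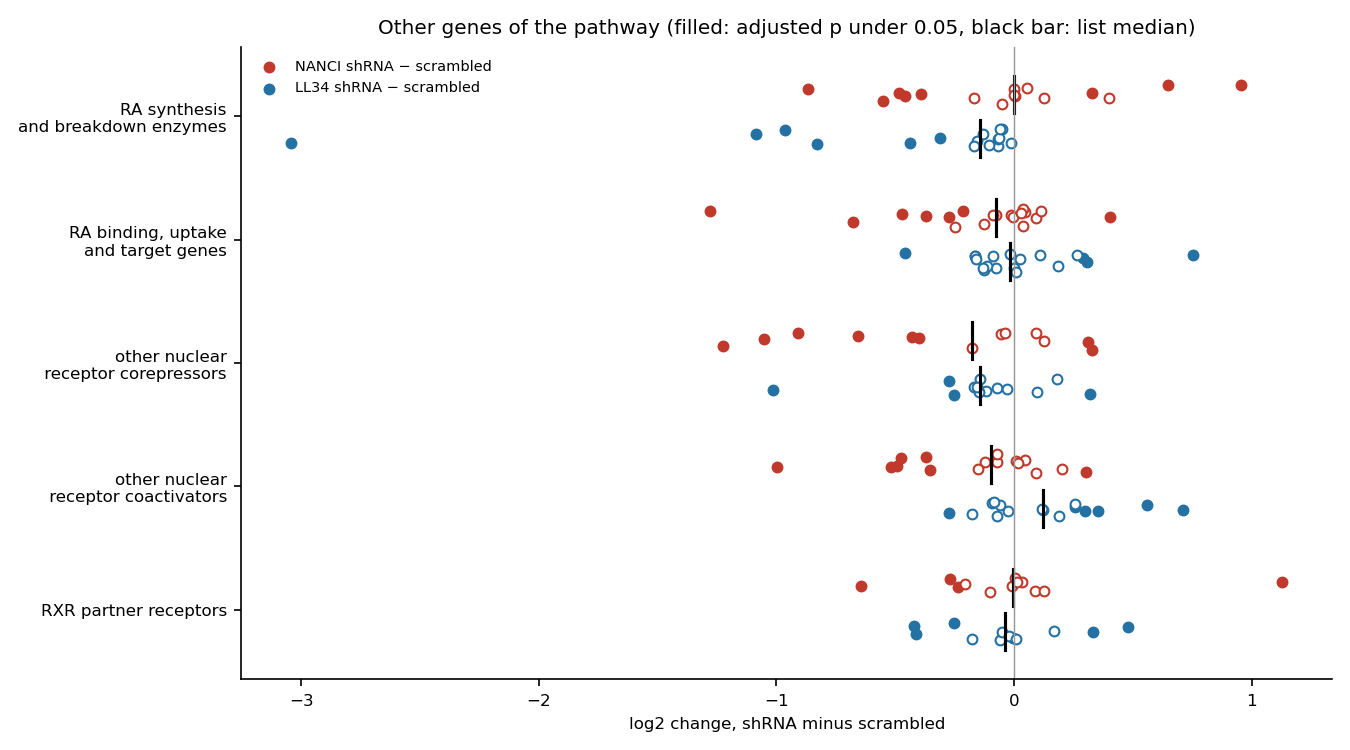
Log2 change of each measured gene of the 5 pathway lists after NANCI shRNA (red, upper row of each list) and LL34 shRNA (blue, lower row); filled points passed an adjusted p of 0.05 and the black bar is the list median. The far left blue point is Aldh1a1, and of the 16 coactivators 10 red points lie left of 0 and 9 blue points right of it.

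Beside Nrip1, 13 other corepressor genes were measured. After NANCI shRNA 2 rose and 6 fell (median −0.18), and after LL34 shRNA 1 rose and 3 fell (median −0.14). Tbl1xr1, a subunit of the corepressor complex that holds NCoR1 and HDAC3, fell by 1.23 (limma adjusted p = 1.54e-05) and fell by 1.01 (0.00012). Hdac2, a histone deacetylase, fell by 1.05 after NANCI shRNA, Gps2, another subunit of that complex, by 0.91, and Lcor, a ligand-dependent corepressor, by 0.43. Against all 6 scrambled arrays Gps2 measured −0.36 (adjusted p = 0.407). After LL34 shRNA Gps2 rose by 0.32 (adjusted p = 0.0347), Nr0b1 fell by 0.27 and Tbl1x by 0.25. Nr0b1 was dim, with a scrambled mean of 4.87 where array medians of the LL34 set were 6.54 to 6.61. Each of these 3 LL34 calls was lost with at least 1 array left out: Gps2 without any array but LL34_control replicate 2 (adjusted p up to 0.0967), Tbl1x without any array but LL34_control replicate 3 (up to 0.136), and Nr0b1 without LL34_shRNA replicate 1 (0.0918) or 3 (0.101) or LL34_control replicate 3 (0.0783). With 1 array left out the LL34 count ran from 1 to 3, with 1 without LL34_shRNA replicate 1 or 3 and 2 without LL34_shRNA replicate 2 or LL34_control replicate 1. With the LL34 set fitted by itself the count was 1.

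Beside Ncoa7, 16 coactivator genes were measured: 1 rose and 6 fell after NANCI shRNA (median −0.096), and 5 rose and 1 fell after LL34 shRNA (median 0.12). The test of the difference called 8 lower and 2 higher in the NANCI comparison than in the LL34 comparison (median −0.34), where 24.4% of all named genes were called. Most of the 16 were bright, and 39.4% of the brighter probe sets were called for the difference in the separate fit of those alone. The counts of the 16 come from the fit of all probe sets. Of the 16, 4 (Ncoa1, Ncoa3, Ncoa6 and Carm1) were called in both comparisons with opposite signs, and 5 had the same sign in both. The share of all genes called with opposite signs is not given here, so the 4 are descriptive. The LL34 call of Ncoa3 lay near the threshold (0.25, limma adjusted p = 0.0456). Ep300, the acetyltransferase p300, fell by 1.00 after NANCI shRNA (SE 0.0543, limma adjusted p = 7.32e-07). Ncoa4 fell by 0.52, Med1, the Mediator subunit that contacts nuclear receptors, by 0.49, and Ncoa3, a coactivator of the p160 family, by 0.47. After LL34 shRNA Ncoa1, the founding p160 member, rose by 0.56 (limma adjusted p = 0.00145), Ppargc1a by 0.71 and Ncoa6 by 0.30, and the arginine methyltransferase gene Carm1 fell by 0.27. Against all 6 scrambled arrays Ncoa1 measured 0.35 (adjusted p = 0.123). The Ppargc1a call was lost without LL34_shRNA replicate 1 (0.0621) or 2 (0.0561). The LL34 count was 3 without LL34_shRNA replicate 2. With the LL34 set fitted by itself the count was 2, with 1 higher and 1 lower. The calls of Ncoa6 (adjusted p = 0.0517) and Ppargc1a (adjusted p = 0.0902) were lost in that fit.

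Of 12 measured receptors that also pair with retinoid X receptors, 1 rose and 3 fell after NANCI shRNA (median −0.0035), and 2 rose and 3 fell after LL34 shRNA (median −0.037). Ppard, a fatty acid receptor gene, rose in both, by 1.13 (limma adjusted p = 1.21e-06) and 0.48 (0.000651). Pparg, the lipid receptor of fat cells and alveolar macrophages, fell by 0.65 (5.36e-05) after NANCI shRNA and measured 0.17 (0.141) after LL34 shRNA. Vdr, the vitamin D receptor gene, fell by 0.41 after LL34 shRNA, as did the orphan receptor gene Nr4a2 by 0.42, while Nr4a1 rose by 0.33, or 0.14 (adjusted p = 0.379) against all 6 scrambled arrays. After NANCI shRNA Vdr (−0.24, adjusted p = 0.0487) and the thyroid hormone receptor gene Thra (−0.27, 0.0288) were called. The Vdr call was lost without any array but NANCI_shRNA replicate 3 (up to 0.178), and the Thra call without any array but NANCI_control replicate 2 (up to 0.115). The NANCI count was 2 without NANCI_shRNA replicate 1 or 2 or NANCI_control replicate 1 or 3. Against all 6 scrambled arrays the NANCI counts fell from 8 to 3 for enzymes and from 8 to 4 for corepressors. In the LL34 comparison they fell from 4 to 1 for binding and target genes, from 4 to 2 for corepressors, from 6 to 3 for coactivators and from 5 to 3 for partner receptors. Lists whose counts moved less are not given. Over all probe sets the calls also fell, from 8228 to 6221 in the NANCI comparison and from 6766 to 4309 in the LL34 comparison.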

How the data were processed

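RNA was measured on 12 Affymetrix arrays, 3 per group. The authors deposited log2 signals per probe set. Per the submitters' processing notes, oligo, RMA and limma are named; no version or order was given in the sources used here. Medians and tied values differed between the sets, as if each had been normalized on its own. Probe sets were named through the platform annotation (23521 with 1 symbol, 1814 with several, 16010 with none), and the brightest stood for a gene. Group means were fitted to the log2 values of all 12 arrays with limma 3.58.1 (R 4.3.3, with data.table at 1.17.8; 8 residual and 2.84 prior degrees of freedom), after a check on simulated data. Changes are shRNA minus scrambled. An exact permutation of 3 against 3 arrays cannot go below 0.1. The number of arrays limits precision.

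The genes, lists and tests were chosen with earlier results of these data known. The text names the 8 genes, in each list up to 4 called genes with the smallest p per knockdown, and for the 3 genes with the largest change the 3 most alike profiles. Cyp26a1, Bco1, Sfta3-ps, Nkx2-1 and the marker genes were named besides. Other normalizations, controls, weights, filters, the replicate block and leaving out each array were tried. Replicate numbers were not treated as pairs.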

Additional observations from a re-analysis of the deposited data

Results flagged for a closer look

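The changes of 2 of the 8 measured genes, both receptors, differed between the knockdowns by a test of the difference itself. Over all probe sets 18.8% were called in that test. In the separate fit of the brighter probe sets alone, 42.9% of 7 genes were called beside 39.4% of those probe sets. For Rara, RAR alpha, the NANCI change minus the LL34 change was 0.93 in log2 units (limma adjusted p = 0.000305, SE 0.123), with all 3 NANCI shRNA arrays above and all 3 LL34 shRNA arrays below their scrambled arrays. The LL34 margin of Rara was narrow (9.02 against 9.05), and its LL34 call was lost with the LL34 set fitted by itself (limma adjusted p = 0.132). For Rarg, RAR gamma, the difference was 1.12 (SE 0.106, limma adjusted p = 3.24e-05). Its arrays were separate in the same directions in both sets, with a wider LL34 margin (7.86 against 8.36).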

How the results depend on the processing

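Of 365 recomputed changes of the 8 genes, 334 kept their side of the threshold, 16 lost a call, 15 gained one and none of the called changes turned in sign. The NANCI count of 4 called genes ran from 2 (without NANCI_control replicate 1) to 4 with 1 array left out. The LL34 count of 2 ran from 1 to 4 with 1 array left out, and was 4 with quantile normalization over all arrays, 4 with array weights (whose iteration stopped short of its tolerance), 1 with the LL34 set fitted by itself and 1 under the replicate block. Deviations of same-numbered arrays from their group means correlated at −0.125 to 0.0451, and those of differently numbered arrays at −0.150 to 0.134. With 3 arrays a group, such values cannot tell whether same-numbered samples shared a batch, and the labels do not say. The block lost the calls of Nrip1 after NANCI shRNA (limma adjusted p = 0.0762) and Rara after LL34 shRNA (0.0566). It left 3 NANCI genes and 2 differences called, and 6906, 5257 and 6320 probe sets in the NANCI, LL34 and difference tests, in place of 8228, 6766 and 7780. With all 6 scrambled arrays as 1 control group, 4309 probe sets were called after LL34 shRNA, and Aldh1a1 after NANCI shRNA (−0.0036), Gps2 after LL34 shRNA (−0.24) and Hoxb4 after LL34 shRNA (−0.13) turned in sign. The 6 scrambled arrays come from both sets, whose scrambled groups differed by a median of −0.22 (LL34 minus NANCI) over all probe sets. Changes against all 6 also hold any such difference. The cause was not tested. Among the other named genes with Sfta3-ps and Nkx2-1, 17 of 22 NANCI calls and 9 of 22 LL34 calls held under every alternative. Each of the 8 genes had 1 probe set, so no other probe set could be tried. Rxrg and Cyp26a1 read below the array median throughout, and Rxrg had the largest standard error of the 8 genes.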
